A study of Mus musculus with 34 samples.

Results

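The comparison described here is between 2 amounts of 1 carbon nanotube material, coded NRCWE-044, in the lungs of mice. It takes every array whose treatment label is NRCWE-044: 5 arrays at 54 µg and 6 arrays at 18 µg, 11 of the 34 arrays of the series, and it runs across all genes. The mice were female C57BL/6, 5 to 7 weeks old, and received a single dose into the trachea in 40 µl. The lungs were taken at day 28. Both doses of NRCWE-043 (5 arrays each), of NRCWE-045 (5 arrays at 54 µg and 3 at 18 µg) and 5 control arrays complete the series. What the control mice were given is not stated in the labels. The title of 1 control array names NRCWE-043 at 0 µg while its treatment label reads Control; it was kept among the controls. Each array compared lung RNA, in the red dye Cy5, with a reference RNA pooled from 11 mouse cell lines, in the green dye Cy3. A value below is therefore a log2 ratio of lung to reference, and a difference of 1 between doses is a factor of 2. After ± stands the SE for a difference and the SD over arrays for a group's mean. The labels do not say outright that each array is a separate animal, so p-values measure the spread between these samples. Because whole lung was measured, fewer cells of a type and less RNA per cell cannot be told apart.

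Carbon nanotubes that reach the alveoli are taken up by macrophages, which release chemokines, small proteins that draw monocytes, neutrophils, eosinophils and lymphocytes into the tissue. Long, stiff or poorly cleared tubes are known in rodents for lasting inflammation, granulomas and scarring, and in some cases for a type 2 response, the branch of immunity in which interleukins 4 and 13 act on macrophages and on mucus-making airway cells.

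No gene passed the test between the doses. A linear model with 1 mean for each of the 7 groups was fitted to 29331 units (17156 of them named genes, the rest accessions without a name here), and 0 of 29331 (0%) had an adjusted p under 0.05 in limma with Benjamini-Hochberg adjustment. The smallest adjusted p was 0.274. At an unadjusted p under 0.05 there were 845 units higher at 54 µg (2.88%) and 692 lower (2.36%), 5.24% of all units together, and 49.7% of units lay above 0. All 5 arrays at 54 µg lay above all 6 at 18 µg in 100 units (0.341%) and below all 6 in 54 units (0.184%). The median difference over all units was -0.00089, and 95% of units differed by less than 0.292 on the log2 scale. The words higher and lower below describe the measured values, none of which passed the adjusted threshold in this fit.

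On the 11 arrays 51.1 to 65.2% of probes were well above background in Cy5, and the median spot intensity in Cy5 was 108 to 160. Pairs of arrays of the same dose correlated across probes with r between 0.914 and 0.968, and pairs of different doses between 0.91 and 0.969. The arrays were scanned on 6 slides. Slides 1, 2, 4 and 5 hold 1 array of each dose, slide 3 holds 1 array at 54 µg and slide 6 holds 2 at 18 µg. The first principal component of the 11 arrays held 24.1% of the variance, of which slide accounted for a share of 0.594 and dose for 0.297. The second held 19.9%, with 0.974 for slide and 0.00711 for dose. Slide was fitted with 6 levels over 11 arrays and dose as 1 term, so the shares of slide and dose are not directly comparable. Markers of alveolar, airway and endothelial cells and of macrophages were above background on all 11 arrays, and Sftpc, surfactant protein C of alveolar type 2 cells, read 7.87 to 8.44 at 54 µg and 8.04 to 8.87 at 18 µg. Heart and fat markers differed between arrays of 1 dose, as described further on.

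In each direction the 12 named genes with the smallest p among those whose arrays did not overlap are described first, and they were of mixed kinds. Higher at 54 µg was Rgs16, a regulator that shortens G protein signalling behind chemokine and other receptors. It read -1.02, -1.21, -1.30, -0.95 and -0.90 on the arrays at 54 µg, against a lowest, median and highest value of -2.07, -1.80 and -1.71 at 18 µg. Every array at 54 µg was higher, by 0.76 ± 0.17 on average (SE; 1.69-fold), and the 5 control arrays averaged -1.83, the same mean as the 18 µg arrays. The difference had an unadjusted p of 0.000131 and an adjusted p of 0.574 in limma. Batf3, the transcription factor of cross-presenting dendritic cells, read -0.03, 0.09, 0.24, 0.40 and 0.20 at 54 µg, against -0.51, -0.38 and -0.22 (lowest, median, highest) at 18 µg, a difference of 0.56 ± 0.13. Cd177, a surface protein of neutrophils, read 1.65, 1.36, 0.81, 1.59 and 2.06 at 54 µg, against 0.12, 0.42 and 0.79 at 18 µg. For Cd177 the lowest array at 54 µg, on slide 3, lay next to the highest at 18 µg, and the mean difference was 1.02 ± 0.26, or 2.03-fold.

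The other genes of the 12 above at 54 µg included some of cilia and of cell division. Ccdc181, a protein of motile cilia and sperm tails, averaged 1.33 ± 0.10 at 54 µg and 0.83 ± 0.18 at 18 µg (SD, n = 5 and 6). Ribc1, a protein of the ciliary microtubules, averaged -0.06 ± 0.03 at 54 µg and -0.50 ± 0.20 at 18 µg, and Cep131, a centrosome protein, -0.52 ± 0.21 and -0.81 ± 0.06. Mcm10, which helps start DNA replication, averaged -2.81 ± 0.16 at 54 µg and -3.19 ± 0.14 at 18 µg. The rest were Fndc7 (0.54 ± 0.11 higher), Tbata (0.50 ± 0.13), the laminin-binding integrin Itga7 (0.55 ± 0.14), the muscle troponin Tnni2 (0.45 ± 0.12) and the carbonyl reductase Cbr4 (0.33 ± 0.09). The difference in Tbata was 0.02 to 0.31 on its 4 other probes.

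The 12 genes in the other direction differed by -0.54 to -0.16. Zfp365, a zinc finger protein, read -0.71, -0.47, -0.87, -0.45 and -0.70 at 54 µg, against -0.40, -0.23 and 0.08 (lowest, median, highest) at 18 µg. It was lower at 54 µg by 0.44 ± 0.09 (log2 difference -0.44; 1.36-fold), with an adjusted p of 0.543 in limma, and all 5 arrays lay below all 6. The natriuretic peptide clearance receptor Npr3 averaged 1.25 ± 0.19 at 54 µg and 1.78 ± 0.22 at 18 µg. The kinase gene Pdik1l averaged 0.77 ± 0.23 at 54 µg and 1.31 ± 0.19 at 18 µg. Arhgap31, which switches off the small GTPases Rac1 and Cdc42, averaged 3.05 ± 0.11 at 54 µg and 3.34 ± 0.14 at 18 µg, and the focal adhesion gene Lims2 3.99 ± 0.16 and 4.36 ± 0.21. Tbkbp1, an adaptor of the kinase TBK1, differed by -0.25 ± 0.09, and by 0.01 on 1 other probe. Ywhaq, Ttpal, Pcdha8 and AI597479 differed by -0.28 to -0.16. On their other probes Ttpal differed by -0.01 and -0.31, and Ywhaq by -0.31 to -0.12. Mei4 and Rnf112 complete the 12. Mei4 was above background on 2 of 5 arrays at 54 µg and 4 of 6 at 18 µg and Rnf112 on 1 of each dose, so no fold is given for them.

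The CC chemokines lay higher at 54 µg as a list. All 17 chemokine and receptor genes tested, of 20 in the list, had a difference above 0, with a median of 0.439, against 49.7% of all units and a median of -0.00089. At an unadjusted p under 0.05 there were 6 of 17 higher and 0 lower, beside 2.88% and 2.36% of all units. The mean of the list, set against the controls, was 0.308, 0.502, 0.246, 0.582 and 0.554 on the 5 arrays at 54 µg, against -0.197, 0.00846 and 0.112 (lowest, median, highest) at 18 µg. The doses did not overlap in this mean, and within slides 1, 2, 4 and 5 the array at 54 µg was higher by 0.30, 0.476, 0.574 and 0.442. The controls spread from -0.253 to 0.427, so they overlapped both doses. The median of the list stayed between 0.364 and 0.482 when each of the 11 arrays was left out in turn.

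Ccl8, a chemokine for monocytes and T cells made by macrophages, was the member with the largest difference. It read 1.63, 2.73, 1.5, 2.85 and 3.25 at 54 µg, against 0.31, 1.20 and 1.81 (lowest, median, highest) at 18 µg. Of the 5 arrays at 54 µg 3 lay above every array at 18 µg, and the mean difference was 1.29 ± 0.42 (2.44-fold, unadjusted p 0.00425, adjusted p 0.841 in limma). Against the controls Ccl8 stood at 0.56 ± 0.44 at 54 µg and at -0.73 ± 0.42 at 18 µg. Ccl9, which draws monocytes and dendritic cells, read 0.03, 0.15, 0.19, 0.94 and 0.48 at 54 µg, against -0.71, -0.49 and -0.05 at 18 µg. All 5 arrays lay above all 6, by 0.79 ± 0.28 on average, and Ccl9 was 0.89 ± 0.29 above the controls at 54 µg and 0.10 ± 0.28 above them at 18 µg. Ccl2, the main monocyte chemokine, did not overlap either: it averaged -4.35 ± 0.10 at 54 µg and -4.83 ± 0.17 at 18 µg, with a control mean of -4.62 ± 0.41. Ccl11, the eosinophil chemokine eotaxin, was above background on 4 of 5 arrays at 54 µg and 2 of 6 at 18 µg and averaged 0.73 ± 0.35 and 0.17 ± 0.25. Other members at an unadjusted p under 0.05 included the T helper 2 chemokine Ccl17 (0.66 ± 0.31) and Ccl4, a chemokine of macrophages and T cells (0.56 ± 0.27, and 0.34 without replicate 1 at 18 µg).

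**Figure D1:**
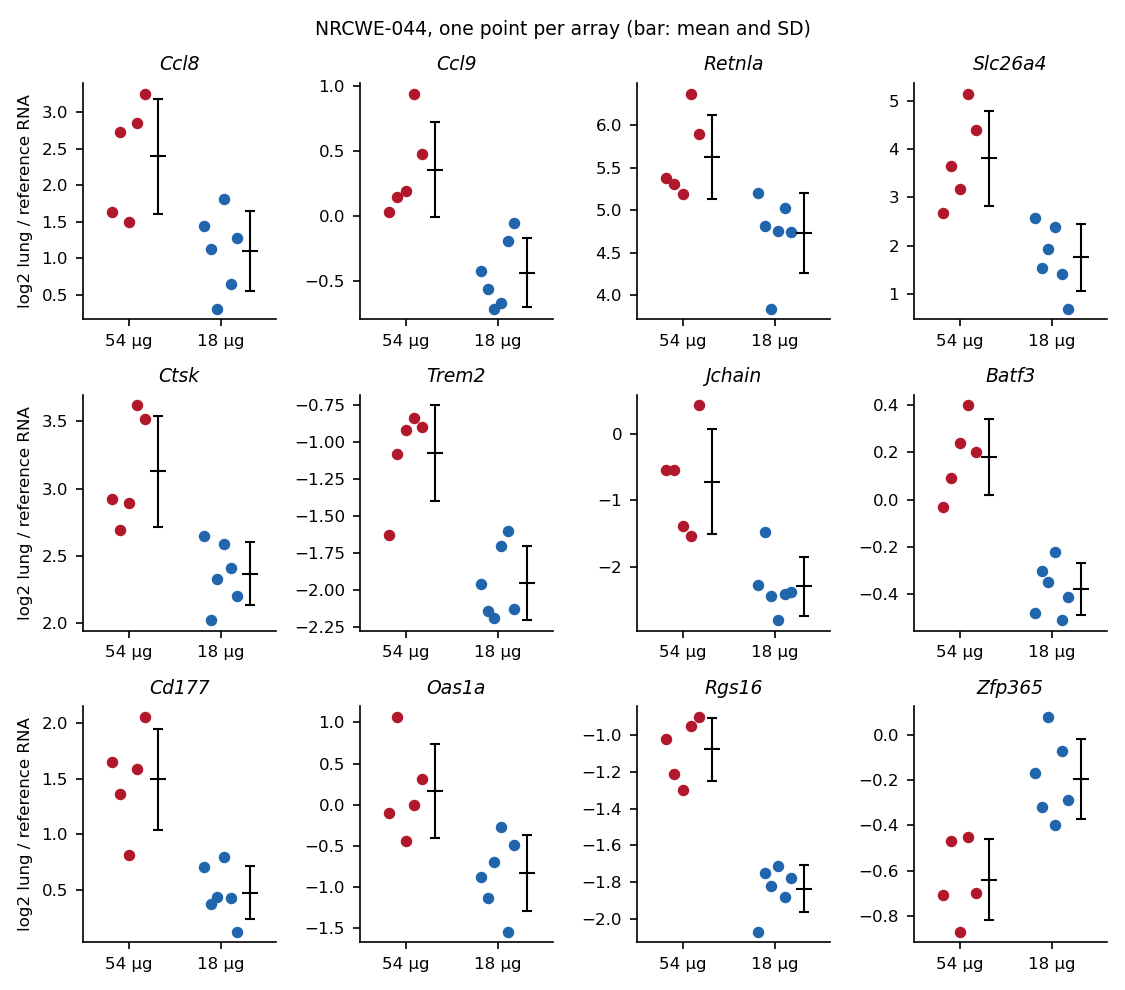
Log2 ratio of lung to reference RNA (vertical axis) for 12 genes, 1 point per array, NRCWE-044 at 54 µg (red, 5 arrays) left of 18 µg (blue, 6 arrays); the black bar is the mean and SD. Ccl9, Slc26a4, Ctsk, Batf3, Cd177 and Rgs16 show no overlap upward and Zfp365 none downward, while Ccl8, Retnla, Trem2, Jchain and Oas1a overlap in at least 1 array.

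Genes of type 2 immunity and alternative activation had a median difference of 0.477, with 16 of 20 above 0, beside 49.7% of all units. At an unadjusted p under 0.05, 8 were higher and 0 lower, beside 2.88% and 2.36% of all units. The list holds chemokines already counted among the CC genes. Its mean was 0.219, 0.426, -0.293, 1.03 and 0.4 at 54 µg, against -0.525, -0.428 and -0.212 (lowest, median, highest) at 18 µg. Replicate 3 at 54 µg lay among the 18 µg arrays, and the controls, from -0.44 to 0.494, overlapped both doses. Relative to the controls the list median was 0.244 at 54 µg and -0.233 at 18 µg. Slc26a4, the anion exchanger pendrin that interleukin 13 induces in airway cells, read 2.68, 3.64, 3.18, 5.14 and 4.40 at 54 µg, against 0.70, 1.74 and 2.58 (lowest, median, highest) at 18 µg. The arrays did not overlap, and the mean difference was 2.05 ± 0.60, a 4.13-fold higher ratio, with an unadjusted p of 0.00186 and an adjusted p of 0.746 in limma. On slide 1 alone the 2 doses lay 0.10 apart, and on slides 2, 4 and 5 they lay 2.10, 3.2 and 2.01 apart. Against the controls Slc26a4 stood at 1.34 ± 0.63 at 54 µg and at -0.71 ± 0.60 at 18 µg. Retnla, a secreted marker of alternatively activated macrophages also made by airway epithelium, read 5.38, 5.31, 5.19, 6.37 and 5.90 at 54 µg, against 3.84, 4.78 and 5.20 at 18 µg. Only 1 array at 54 µg reached into the 18 µg range, and the mean difference was 0.90 ± 0.35, and 0.22 from the scanner software's processed signals. Relative to the controls Retnla lay 0.29 ± 0.36 higher at 54 µg and 0.61 ± 0.35 lower at 18 µg (log2 difference -0.61). The mucins Muc5b and Muc5ac and the T helper 2 factor Gata3 were 1.86 ± 0.66, 0.82 ± 0.31 and 0.41 ± 0.15 higher. Members near 0 were Il4 at 0.052, Il33 at 0.0308, Postn at -0.039 and Ear2 at -0.000835, and the interleukins Il5 and Il13 were not tested because too few arrays were above background. Prg2, the major basic protein of eosinophil granules, was above background on 5 of 5 arrays at 54 µg and on 1 of 6 at 18 µg, and its arrays did not overlap.

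Of the genes of macrophage lysosomes and lipid handling 18 of 25 lay above 0, and the median was 0.139 (0.0856 without replicate 4 at 54 µg). At an unadjusted p under 0.05, 6 were higher and 0 lower, beside 2.88% and 2.36% of all units. The mean of the list was 0.274, 0.262, 0.232, 0.308 and 0.346 on the 5 arrays at 54 µg, against -0.0554, 0.0109 and 0.117 (lowest, median, highest) at 18 µg. The doses did not overlap, and all 5 controls, from -0.12 to 0.0987, lay below every array at 54 µg. This mean includes Fabp4, also a fat cell gene, which read 7.66 on replicate 1 at 54 µg against a control mean of 2.91. That value raises the list mean of replicate 1. The separation of that array from the 18 µg arrays and from the controls rests on this 1 gene. Ctsk, the protease cathepsin K, read 2.92, 2.69, 2.89, 3.62 and 3.52 at 54 µg, against 2.02, 2.37 and 2.65 at 18 µg. Its arrays did not overlap and it was 0.76 ± 0.23 higher (1.69-fold, adjusted p 0.746 in limma). Trem2, a lipid-sensing receptor of macrophages, read -1.63, -1.08, -0.92, -0.84 and -0.90 at 54 µg, against -2.19, -2.05 and -1.60 at 18 µg. Of the 5 arrays 4 lay above all at 18 µg, by 0.88 ± 0.30 on average, and Trem2 was 0.98 ± 0.31 above the controls at 54 µg and 0.10 ± 0.30 above them at 18 µg. Gpnmb, a glycoprotein of lipid-laden macrophages, and cathepsin S, Ctss, were 0.62 ± 0.28 and 0.43 ± 0.21 higher. Lpl and Fabp4 were 0.66 ± 0.25 and 1.88 ± 0.85 higher, but both are also genes of fat cells. Without the 2 arrays richest in fat genes the difference in Fabp4 was 0.61, while that in Ctsk was 0.98 and that in Trem2 1.07. Alveolar macrophage markers were mixed, with 9 of 16 above 0: Itgax was 0.34 ± 0.14 higher and Fabp1 0.75 ± 0.33 lower (log2 difference -0.75).

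Of the acute phase and innate defence genes 11 of 14 lay above 0, with a median of 0.525. At an unadjusted p under 0.05, 6 were higher and 0 lower, beside 2.88% and 2.36% of all units. Pglyrp1, which binds bacterial peptidoglycan, read 3.19, 2.62, 2.66, 1.94 and 2.52 at 54 µg, against 1.5, 1.88 and 2.18 (lowest, median, highest) at 18 µg. It overlapped in 1 array and was 0.71 ± 0.25 higher. Saa3, the serum amyloid A made in lung and macrophages, averaged -2.80 ± 0.71 at 54 µg and -3.71 ± 0.21 at 18 µg, with 4 of 5 arrays above all at 18 µg and a difference of 0.91 ± 0.49. Relative to the controls, Saa3 was 1.07 ± 0.51 higher at 54 µg and 0.16 ± 0.49 higher at 18 µg. The iron-binding protein Lcn2 was 0.52 ± 0.28 higher, the endotoxin receptor subunit Cd14 0.49 ± 0.21, and Saa1 0.19 ± 0.20. The mean of this list was 0.653, 0.311, 0.0477, 0.293 and 0.628 at 54 µg, against -0.349, -0.164 and 0.0778 (lowest, median, highest) at 18 µg. Replicate 3 at 54 µg overlapped the 18 µg arrays, and the controls ranged from -0.191 to 0.235. Relative to the controls the list median was 0.348 at 54 µg and -0.128 at 18 µg. The median of this list between the doses was 0.247 with the heart and fat list values of each array as covariates, in place of 0.525.

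Interferon response genes lay above 0 in 21 of 25 cases, with a median of 0.168 (0.107 without replicate 5 at 18 µg). At an unadjusted p under 0.05, 5 were higher and 0 lower, beside 2.88% and 2.36% of all units. The 2 with the smallest p were Oas1a and Oas2, enzymes that sense double-stranded RNA. Oas1a read -0.10, 1.07, -0.45, -0.01 and 0.31 at 54 µg, against -1.55, -0.79 and -0.27 (lowest, median, highest) at 18 µg. Of the 5 arrays 4 lay above every array at 18 µg and the mean difference was 1.00 ± 0.31, with 0.69 ± 0.27 on its other probe. Oas1a has near-identical gene copies that its probes may not separate. Oas2 was 0.83 ± 0.25 higher, the protease Usp18 0.42 ± 0.15, the transcription factor Irf9 0.22 ± 0.09 and Oasl1 0.50 ± 0.24. The list did not separate the arrays: its mean was 0.116, 0.552, 0.0755, 0.0975 and 0.356 at 54 µg, against -0.228, 0.0398 and 0.177 at 18 µg, and on slide 4 the array at 54 µg was lower by 0.0343 (difference -0.0343). Ifit1 differed by 0.0741 and Cxcl10 by -0.0574.

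The stretch before the start of 3 of these genes is shown because each holds a motif of a transcription factor family known to act on genes of its kind. The sequences are from RefSeq on GRCm38.p6, run 5′ to 3′ on the gene's own strand over the 250 bases before its start, and have matches in capitals. For Oas1a (chr5:120907526-120907775, minus strand) the capitals mark the core of the interferon response element (GAAA, any 2 bases, GAAA), and for Retnla (chr16:48842359-48842608, plus strand) they mark the site of STAT dimers (TTC, any 4 bases, GAA). For Ccl9 (chr11:83578637-83578886, minus strand) they mark a site of NF-kB (GGG, any 2 bases, TTTCC) read on the other strand.
Oas1a: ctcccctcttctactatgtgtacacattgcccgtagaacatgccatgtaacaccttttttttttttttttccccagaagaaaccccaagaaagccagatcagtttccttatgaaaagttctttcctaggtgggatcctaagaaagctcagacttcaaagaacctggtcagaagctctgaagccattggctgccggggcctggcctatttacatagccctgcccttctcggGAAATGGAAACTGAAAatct
Retnla: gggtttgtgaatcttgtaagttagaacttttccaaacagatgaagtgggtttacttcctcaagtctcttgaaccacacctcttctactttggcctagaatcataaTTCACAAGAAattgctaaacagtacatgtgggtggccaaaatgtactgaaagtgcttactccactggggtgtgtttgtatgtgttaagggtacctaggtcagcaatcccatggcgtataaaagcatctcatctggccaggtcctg
Ccl9: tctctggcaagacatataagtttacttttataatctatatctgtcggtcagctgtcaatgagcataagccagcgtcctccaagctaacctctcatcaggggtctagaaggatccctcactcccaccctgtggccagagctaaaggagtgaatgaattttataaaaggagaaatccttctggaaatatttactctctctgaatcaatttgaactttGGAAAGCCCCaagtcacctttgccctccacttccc
In Oas1a 2 overlapping matches begin 20 and 14 bases before the start, and a STAT match that begins 27 bases before it shares 3 bases with them. The match in Retnla begins 145 bases before the start and that in Ccl9 35. Searched on both strands, the interferon motif was present in 11 of 21 interferon list genes with a sequence (52.4%) and in 3.04% of all 27025 genes. The STAT motif was in 3 of 14 type 2 genes (21.4%) and 5.86% of all, and the NF-kB motif in 1 of 9 CC genes (11.1%) and 1.40% of all. A match is a run of letters and not evidence of binding.

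Cholesterol and fatty acid synthesis genes under SREBP control lay above 0 in 19 of 23 cases, with a median of 0.182. At an unadjusted p under 0.05, 5 were higher and 0 lower, beside 2.88% and 2.36% of all units. The mean of the list was 0.0898, 0.157, 0.0585, 0.113 and 0.242 on the arrays at 54 µg, against -0.114, -0.0695 and 0.0203 (lowest, median, highest) at 18 µg. The doses did not overlap, and the controls, from -0.188 to 0.163, covered most of both. Insig1, the sterol sensor that retains SREBP in the endoplasmic reticulum, read 0.33, -0.20, -0.46, -0.02 and 0.26 at 54 µg, against -0.65, -0.45 and -0.22 at 18 µg. Of the 5 arrays 4 lay above all at 18 µg, by 0.43 ± 0.15 on average. Scd1, which makes monounsaturated fatty acids, averaged 3.54 ± 0.56 at 54 µg and 2.91 ± 0.14 at 18 µg, with a control mean of 3.81 ± 0.29. Scd1 at 18 µg stood at -0.90 ± 0.27 relative to the controls, and at 54 µg at -0.27 ± 0.29. The fatty acid synthase Fasn was 0.51 ± 0.23 higher and the squalene epoxidase Sqle 0.30 ± 0.15. Scd1 and Fasn are also abundant in fat, and the separation of the doses in the list mean rests on these 2 genes together. Without the 2 arrays richest in fat genes Scd1 differed by 0.46 and Fasn by 0.29, and with the heart and fat list values as covariates by 0.33 and 0.19. The median of the list was 0.245 without these arrays and 0.147 with the covariates.

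Among B cell and plasma cell genes 13 of 18 lay above 0, with a median of 0.0499. That median ranged between -0.0448 (without replicate 5 at 18 µg) and 0.142 (without replicate 4 at 18 µg) with 1 array left out. Jchain, Tnfrsf17 and Mzb1 were the 3 of 18 at an unadjusted p under 0.05, all higher, beside 2.88% of all units. Jchain, which joins the units of secreted IgA and IgM, read -0.55, -0.55, -1.38, -1.54 and 0.43 at 54 µg, against -2.80, -2.39 and -1.47 (lowest, median, highest) at 18 µg. Of the 5 arrays 4 lay above all 6, and the difference was 1.58 ± 0.42, or 2.98-fold, with an adjusted p of 0.574 in limma. Against the controls, Jchain was 1.76 ± 0.44 higher at 54 µg and 0.18 ± 0.42 higher at 18 µg. Tnfrsf17, the plasma cell survival receptor BCMA, was 0.48 ± 0.17 higher and Mzb1, a chaperone of antibody secretion, 0.37 ± 0.17. Other plasma cell genes were Xbp1 at -0.136, Tnfrsf13b at 0.0129 and Pou2af1 at 0.163, and of genes of B cells in general Ms4a1 differed by 0.041 and Cd79b by -0.127. Of dendritic cell genes 10 of 12 lay above 0, and 3 were higher at an unadjusted p under 0.05, against 2.88% of all units. Irf4 was 0.36 ± 0.15 and Flt3 0.26 ± 0.12 higher beside Batf3.

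Monocyte and interstitial macrophage genes lay above 0 in 12 of 14 cases (median 0.138). At an unadjusted p under 0.05, 3 were higher and 1 lower, beside 2.88% and 2.36% of all units. The membrane protein Ms4a7 was 0.59 ± 0.25 higher and the complement subunits C1qb and C1qa 0.52 ± 0.23 and 0.40 ± 0.19. The integrin Itgam was 0.45 ± 0.18 lower (log2 difference -0.45), but 0.04 and 0.17 above 0 on its 2 other probes. Complement factor B, Cfb, was 0.49 ± 0.20 higher. The 16 neutrophil genes tested had a median of 0.186 with 11 above 0. That median was 0.0657 without replicate 2 at 54 µg and 0.439 without replicate 1 at 18 µg. The mean of the list overlapped between the doses and was lower at 54 µg on slide 1 (difference -0.294). Beside Cd177, Lrg1 was 0.51 ± 0.19 higher, whereas S100a9 differed by 0.158, Mpo by 0.196 and Mmp9 by -0.00447. Among CXC chemokine and receptor genes 9 of 15 lay above 0 (median 0.0703), beside 49.7% of all units. The chemokine receptor Cxcr1 of that list did not overlap (1.25 ± 0.40 at 54 µg and 0.51 ± 0.33 at 18 µg), while Cxcr2 differed by -0.196. Among T cell genes 12 of 19 lay above 0 (median 0.0612), and 0 of 19 had an unadjusted p under 0.05. Cell cycle genes lay above 0 in 23 of 27 cases, beside 49.7% of all units, with a median of 0.134 (0.0872 without replicate 5 at 18 µg). At an unadjusted p under 0.05, 2 were higher and 0 lower, beside 2.88% and 2.36% of all units. These were Aurka (0.29 ± 0.14) and Ccne1 (0.24 ± 0.11, and -0.08 on its other probe). Mki67, not among them, was 0.46 ± 0.25 higher (0.30 without replicate 5 at 18 µg).

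**Figure D2:**
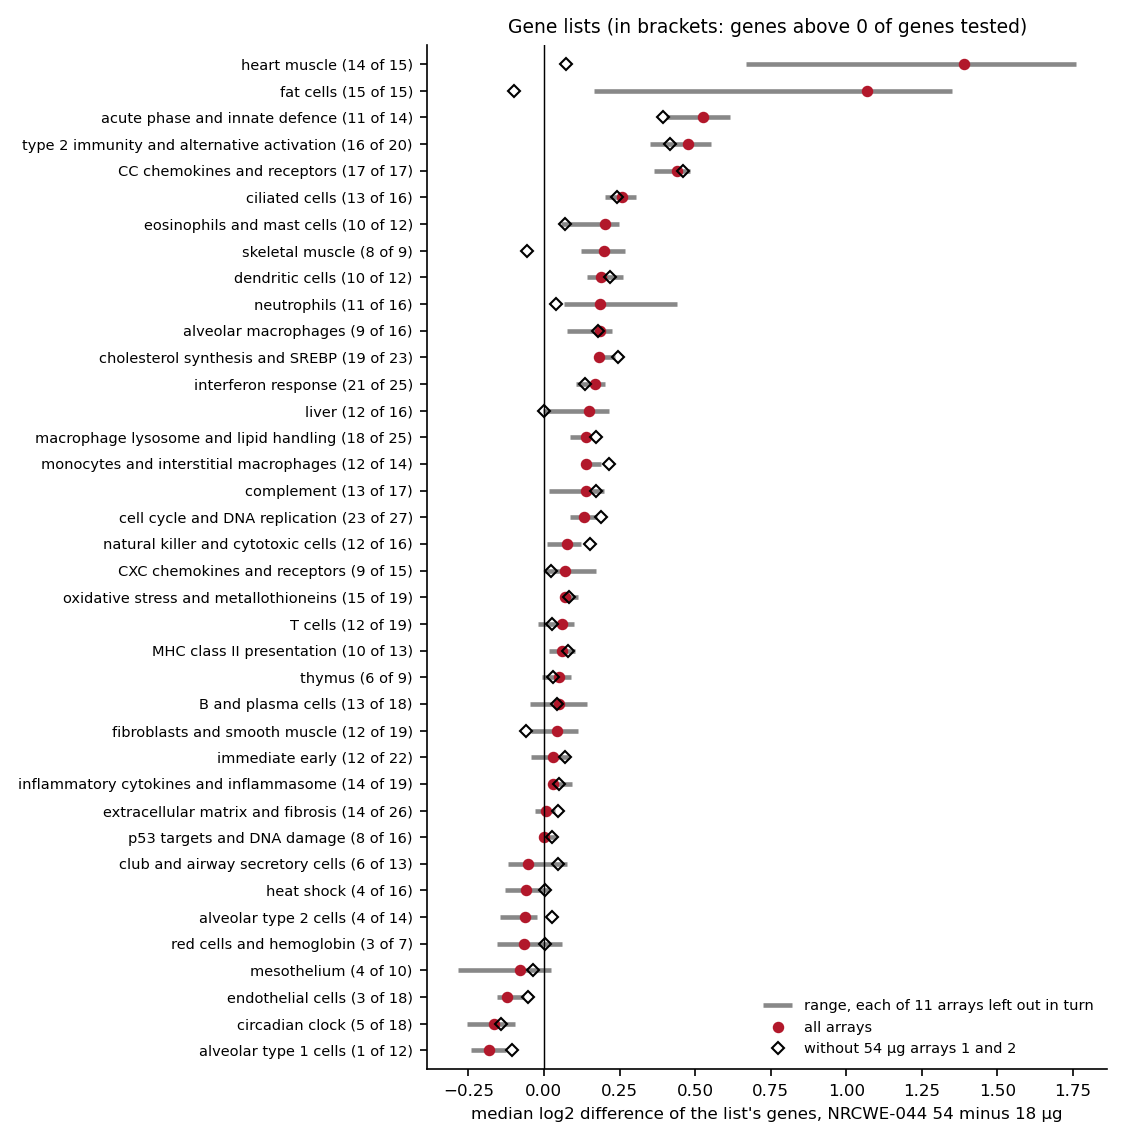
Median log2 difference between 54 and 18 µg of NRCWE-044 (horizontal axis) over the tested genes of 38 lists; red points use all arrays, grey bars span the medians with each of the 11 arrays left out in turn, and open diamonds leave out both 54 µg arrays richest in heart and fat genes. CC chemokines (0.439), type 2 immunity (0.477) and the acute phase (0.525) lead the immune lists, and the diamonds of heart muscle and fat cells lie near 0 (0.0734 and -0.0976).

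Mucus and defence proteins of the airway lining also showed large differences, which varied by slide. Bpifb1, an antimicrobial protein of airway secretions, read 5.50, 4.42, 1.34, 3.75 and 3.51 at 54 µg, against 0.43, 0.90 and 1.85 (lowest, median, highest) at 18 µg. The array at 54 µg on slide 3 lay among the 18 µg arrays, and the other 4 lay above them all. The difference was 2.69 ± 0.79, or 6.46-fold (adjusted p 0.746 in limma). Scgb3a1, a secretoglobin of airway epithelium, read 6.36, 5.81, 2.89, 4.87 and 5.67 at 54 µg, against 2.36, 3.18 and 3.69 at 18 µg, again with the slide 3 array low. The trefoil peptide Tff2, which stabilises mucus, read 4.45, 4.19, 0.51, 3.33 and 3.34 at 54 µg, against 0.28, 0.87 and 1.74 at 18 µg. Clca1, a protein secreted by goblet cells, read 5.58, 8.23, 0.40, 8.42 and 4.80 at 54 µg, against -0.39, 0.28 and 3.05 at 18 µg, and was above background on 4 arrays of each dose. From the scanner software's processed signals Tff2 differed by 0.78 in place of 2.28, Scgb3a1 by 0.74 in place of 2.01 and Muc5b by 1.22 in place of 1.86. Scgb1a1, the most abundant club cell protein, differed by -0.19 ± 0.23, and 6 of the 13 club and airway secretory genes lay above 0 (median -0.053).

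On the 4 slides that hold both doses, with slide as a block, 16 units passed an adjusted p of 0.05 in limma, 0.0545% of all units, and all 16 were higher at 54 µg. This fit uses 8 arrays with 3 residual degrees of freedom, and it leaves out the 54 µg array on slide 3, whose airway genes were low, and both 18 µg arrays of slide 6. Of the 16 units 15 are named, and 6 of these were in the lists. Tff2 led with 3.08 ± 0.15 (adjusted p 0.00242), being 3.48, 3.28, 3.05 and 2.51 higher within slides 1, 2, 4 and 5. Scgb3a1 rose by 2.80 ± 0.19 (adjusted p 0.0125), Bpifb1 by 3.55 ± 0.30 (0.0241), Muc5b, a gel-forming mucin, by 2.69 ± 0.25 (0.0353), Clca1 by 6.61 ± 0.65 (0.0353; its probe was above background on 4 of 5 arrays at 54 µg and 4 of 6 at 18 µg) and the iron-binding lactoferrin Ltf by 2.34 ± 0.24 (0.0365). Cd177 rose by 1.09 ± 0.08 in the same fit (adjusted p 0.0226). The calcium-binding S100b rose by 1.09 ± 0.09, Wfdc17, a protease inhibitor family member of macrophages, by 1.13 ± 0.11, and the kallikrein Klk11 by 0.77 ± 0.08. The remaining named units were Fam83e, Wfdc13, Rsph14 (a radial spoke protein of cilia), Ubxn11 and E230025N22Rik, between 0.69 and 1.02 higher. Those of the 15 outside the lists are named after their values were seen. With all slides and slide as a fixed block 0 units passed (smallest adjusted p 0.32, 2055 units at an unadjusted p under 0.05).

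**Figure D3:**
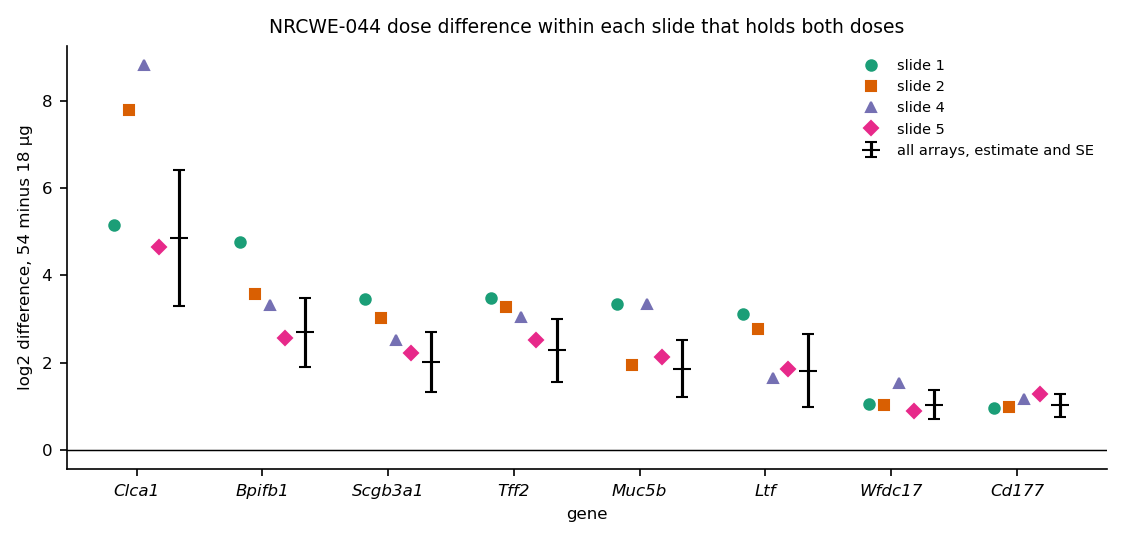
Log2 difference between the 54 and the 18 µg array of NRCWE-044 on each slide that holds both doses (coloured symbols) for 8 genes called on those slides, with the estimate and SE from all arrays (black). The genes were chosen by a fit to these same differences, so their shared sign follows from the choice and is no separate support. The smallest difference is 0.90, for Wfdc17 on slide 5, and the all-array estimates of the airway genes have wide errors.

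Relative to the controls, Bpifb1 was 0.27 ± 0.82 higher at 54 µg and 2.42 ± 0.79 lower at 18 µg (log2 difference -2.42). Scgb3a1 lay 0.15 ± 0.71 above the controls at 54 µg and at -1.86 ± 0.68 relative to them at 18 µg, and Muc5b at 0.05 ± 0.69 and -1.80 ± 0.66. In the same order Clca1 lay at 1.98 ± 1.62 and -2.88 ± 1.56, and Tff2 at 0.75 ± 0.75 and -1.53 ± 0.72. Wfdc17 and Cd177 stood at 1.04 ± 0.34 and 0.85 ± 0.27 relative to the controls at 54 µg, and at 0.01 ± 0.33 and -0.17 ± 0.26 at 18 µg. E230025N22Rik, the unit with the smallest p in the fit on all arrays (adjusted p 0.274), was 0.80 ± 0.18 above the controls at 54 µg, and at -0.12 ± 0.17 relative to them at 18 µg.

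Heart and fat genes moved with 2 of the arrays. The mean of the 15 heart muscle genes, relative to the controls, was 2.10, 0.598, -1.75, -1.83 and -1.48 at 54 µg, against -1.86, -1.80 and -1.51 (lowest, median, highest) at 18 µg. Replicates 1 and 2 at 54 µg, on slides 1 and 2, were higher than the other NRCWE-044 arrays, and the other 3 lay with the 18 µg arrays. The controls ranged from -0.985 to 0.843, so those 3 and all 6 arrays at 18 µg lay below every control. The atrial myosin gene Myl7 read 5.83, 4.26, 1.82, 0.68 and 1.51 at 54 µg, against 0.38, 1.01 and 1.77 at 18 µg. The mean of the 15 fat cell genes was 3.08, 0.682, -0.824, -0.517 and -0.609 at 54 µg, against -0.866, -0.664 and 0.0547 at 18 µg. The controls ranged from -0.867 to 0.772, so replicate 2 at 54 µg lay within the control range in both lists, and replicate 1 above it. Adipoq, the fat hormone adiponectin, read 6.36 on replicate 1 at 54 µg. The liver list stood at 0.988 on that array, with the other 4 between -0.0758 and -0.014, and Ucp1 of brown fat read 5.11 there and at most 0.31 elsewhere at 54 µg. Per the labels, RNA was extracted from randomly chosen pieces of the frozen tissue, and liver and heart were collected beside the lung. With both arrays left out the heart median was 0.0734 in place of 1.39 and the fat median -0.0976 in place of 1.07.

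Airway genes were also high on these arrays relative to the other NRCWE-044 arrays. Reg3g, an antibacterial lectin of epithelium, read 7.89, 6.9, 0.28, 1.15 and 0.5 at 54 µg, against -0.05, 0.22 and 0.52 (lowest, median, highest) at 18 µg. Replicates 1 and 2 lay far above the other NRCWE-044 arrays, and the controls ranged from 0.92 to 5.94. The mean of the club and airway secretory genes was 1.01 and 0.435 on replicates 1 and 2 at 54 µg and -0.777, -0.468 and -0.398 on the other 3, against -1.28, -1.01 and -0.56 at 18 µg. The controls of this list ranged from -0.526 to 0.687. Replicate 2 at 54 µg lay within them, and replicate 3 and all 6 arrays at 18 µg lay below them. Without replicates 1 and 2 the difference in Tff2 was 1.51 in place of 2.28, that in Scgb3a1 1.36 in place of 2.01 and that in Ltf 0.76 in place of 1.81. With the heart and fat means as covariates, Tff2 differed by 1.21 and Bpifb1 by 1.47. The part of heart and fat tissue in these differences was not tested. The CC chemokine median was 0.46 and the lysosome median 0.171 without the 2 arrays, and 0.331 and 0.135 with the covariates, in place of 0.439 and 0.139.

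**Figure D4:**
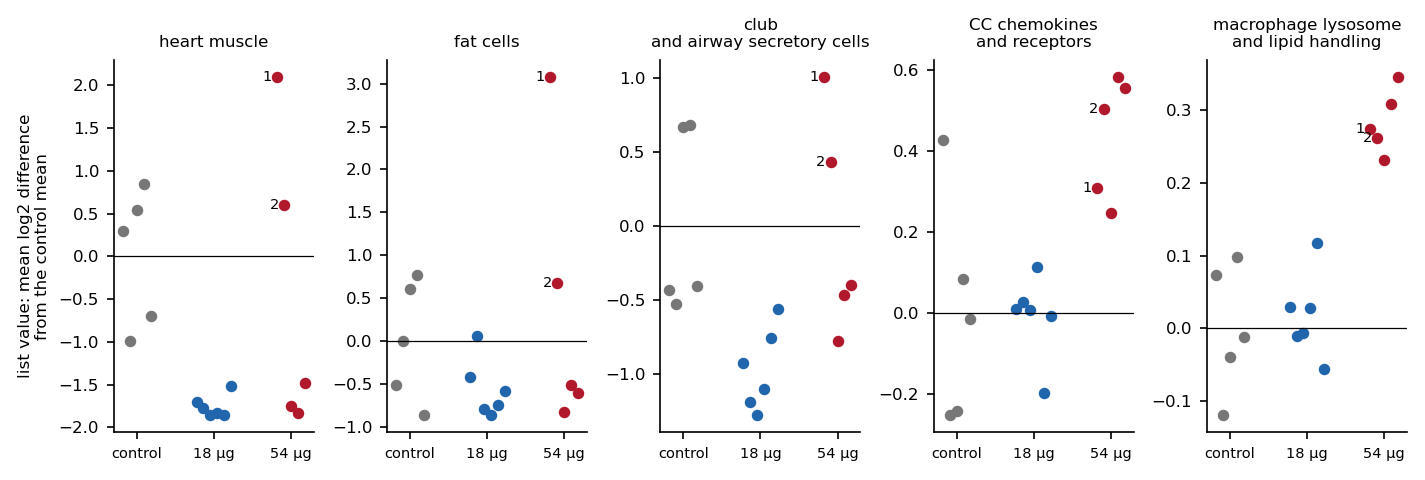
Mean log2 difference from the control mean over the genes of 5 lists (vertical axis), 1 point per array, for controls (grey), 18 µg (blue) and 54 µg (red) of NRCWE-044; 1 and 2 mark replicates 1 and 2 at 54 µg. Those 2 arrays stand apart from the other NRCWE-044 arrays in the heart (2.10 and 0.598) and fat lists (3.08 and 0.682). Replicate 2 lies within the controls there, which reach 0.843 and 0.772. In the CC chemokine and lysosome lists all 5 arrays at 54 µg lie above the 6 at 18 µg. The lysosome list includes the fat cell gene Fabp4, which read 7.66 on replicate 1, and the separation of that array in this list rests on it.

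Of 18 endothelial genes 3 lay above 0 and 15 below, with a median of -0.123 (-0.067 without replicate 6 at 18 µg). Only 1 of them (5.56%) was lower at an unadjusted p under 0.05, beside 2.36% of all units. This was Flt1, a receptor for VEGF. Flt1 read 3.6, 3.48, 3.25, 3.82 and 3.64 at 54 µg, against 3.66, 3.91 and 4.12 (lowest, median, highest) at 18 µg. Of the 5 arrays 4 lay below all at 18 µg, by 0.33 ± 0.11 (log2 difference -0.33). Of 12 alveolar type 1 genes 11 lay below 0 (median -0.181, 0 of 12 at an unadjusted p under 0.05), with Pdpn at -0.23 ± 0.12 and Emp2 at -0.18 ± 0.10 (-0.09 without replicate 1 at 54 µg). Without replicates 1 and 2 at 54 µg these medians were -0.0535 and -0.107. Alveolar type 2 genes had a median of -0.0624. Among ciliated cell genes 13 of 16 lay above 0 (median 0.259). At an unadjusted p under 0.05 only Tekt4 (0.27 ± 0.13) was higher and Mcidas (-0.43 ± 0.18) lower. Each is 6.25% of the list, beside 2.88% and 2.36% of all units. Mcidas read 1.68, 1.41, 1.87, 1.61 and 1.78 at 54 µg, close to the 1.87, 1.53, 1.91, 1.70 and 1.91 of the Itgam probe. Whether the 2 probes share a signal was not tested. The master regulator Foxj1 was 0.43 ± 0.26 higher, and 0.06 from the processed signals.

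The extracellular matrix and fibrosis list had a median of 0.00724 with 14 of 26 above 0: Col1a1, the main collagen gene, differed by -0.05 ± 0.20, the protease inhibitor Timp1 by 0.11 ± 0.18 and osteopontin, Spp1, by 0.28 ± 0.21. The gelatinase Mmp2 differed by 0.33 ± 0.17. Mmp12, the macrophage elastase, averaged -0.02 ± 0.32 at 54 µg and -0.32 ± 0.07 at 18 µg (unadjusted p 0.019), but was above background on only 2 arrays of each dose. The heme oxygenase Hmox1 differed by 0.05 ± 0.18, and by -0.31 ± 0.22 on its other probe, and the oxidative stress list had a median of 0.0699 with 15 of 19 above 0. Its member Srxn1, which repairs oxidised peroxiredoxins, was 0.21 ± 0.09 higher (unadjusted p 0.0315). The cytokines Tnf and Il1b differed by 0.02 ± 0.16 and 0.40 ± 0.30, and Il1b by 0.23 without replicate 5 at 18 µg. Il6 was above background on 1 array of each dose. Targets of p53 had a median of 0.00162. Clock genes lay above 0 in 5 of 18 cases (median -0.164), with Dbp at -1.12 and Nr1d1 at -1.09, and 0 of 18 had an unadjusted p under 0.05. The neutrophil chemokine Cxcl5 differed by 0.81 ± 0.67, and by 0.36 without replicate 5 at 54 µg. Cxcl1, of the same kind, was above background on 4 of 5 arrays at 54 µg and 3 of 6 at 18 µg and averaged -3.81 ± 0.31 and -4.41 ± 0.49.

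The same dose step in the other materials was set beside that of NRCWE-044, with the difference between the steps tested. On its own the dose step had an unadjusted p under 0.05 in 915 units for NRCWE-043 (3.12%) and 693 for NRCWE-045 (2.36%), against 5.24% for NRCWE-044. Neither test of the difference found a unit: 0 of 29331 (0%) passed an adjusted p of 0.05 in limma against NRCWE-043 (smallest adjusted p 0.349, 820 units or 2.8% at an unadjusted p under 0.05) and 0 (0%) against NRCWE-045 (smallest adjusted p 1, 842 units or 2.87%). The median of the CC chemokine list was 0.439 for NRCWE-044, 0.313 for NRCWE-043 and 0.0652 for NRCWE-045, and that of the interferon list 0.168, 0.568 and -0.0954. The type 2 list had medians of 0.477, 0.0521 and 0.0137 and the cell cycle list 0.134, -0.0745 and -0.107. The smallest unadjusted p against NRCWE-043 belonged to Mei4, a gene of meiotic recombination near background here. It was followed by Xlr3b, of a family of near-identical X-linked copies, at 0.63 ± 0.31 for NRCWE-044 and -1.39 ± 0.32 for NRCWE-043, and by the tubulin Tuba8 at 0.46 ± 0.14 and -0.41 ± 0.15. Against NRCWE-045 the smallest belonged to Ucma, above background on 2 of 5 arrays at 54 µg and on 0 of 6 at 18 µg, then to Agt, the precursor of angiotensin, at 0.13 ± 0.10 for NRCWE-044 and -0.49 ± 0.12 for NRCWE-045. Bpifb1, next in that order, stood at 2.69 ± 0.79 for NRCWE-044 and -2 ± 0.95 for NRCWE-045 (adjusted p 1 for the difference between them in limma).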

How the data were processed

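Lung RNA (Cy5) and a universal mouse reference RNA (Cy3) were hybridised together on 2-colour Agilent arrays, with no dye swap. Per the file headers the deposited files hold scanner output of Agilent Feature Extraction 11.0.1.1: spot intensity in each dye, its local background and flags. The deposited series table holds log2 ratios made by the authors, whose normalization is not given in the sources used here; its columns correlated with the values below at 0.994 to 0.998, with array medians of -0.041 to -0.0041, so direction and scale are those of lung over reference. From the median spot intensity and median background, normexp correction (offset 50) and loess within each array were run in limma 3.58.1 (R 4.3.3); the plan named mean signals, which these files do not give. Of 62976 spots 3671 were controls. Of 55681 probes, 27235 took a name from RefSeq tables, giving 20660 genes, and 28446 have no name here. Each gene was read from its brightest Cy5 probe, and the 29331 units whose Cy5 signal the scanner software called well above background on 3 or more arrays were tested. A model with 1 mean per group over all 34 arrays gave the difference, 54 minus 18 µg, and limma's moderated test with Benjamini-Hochberg adjustment was applied over all units; 112 units lack a value on some array, which the fit drops. The named genes were the 12 per direction without overlap and with the smallest p, 2 per list with the smallest p, an anchor list of 20 genes and 3 per comparison of materials. Beside them, list members at an unadjusted p under 0.05 and genes called on the 4 slides are named after their values were seen. The members and the 39 gene lists were chosen with earlier results of these data known. No 2 arrays held identical values. The number of arrays limits the precision. Alternatives were slide as a block (statmod 1.5.0 for the random one), other corrections, normalizations and filters, array weights and each array left out. The scripts were tested on simulated data. Some list members counted in the totals are not reported here by name.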

Additional observations from a re-analysis of the deposited data

Results flagged for a closer look

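Of 330 sets of arrays of 1 dose that were checked, one for each gene or list described, 28 had a single array set apart from the others of its dose, by the gap to its neighbour over the whole range (Dixon's 95% value). Chance gives about 1 in 20. At 54 µg replicate 1 stood highest in Ucp1 (5.11), Lpl (2.82), Fam83e (3.27), Cxcl13 (3.15) and Cbr4 (0.16), and in the liver (0.988), eosinophil and mast cell (0.595) and oxidative stress (0.161) lists. Replicate 2 at 54 µg stood highest in Oas2 (0.79) and lowest in Mei4 (-0.21). Replicate 3 at 54 µg, the array on slide 3, stood lowest in the airway genes Tff2 (0.51) and Wfdc13 (0.65) and in Ttpal (-0.35) and AI597479 (-0.16). Replicate 5 at 54 µg stood highest in Aurka (-3.23).

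At 18 µg replicate 5 stood highest in Clca1 (3.05) and Lims2 (4.78) and lowest in Col1a1 (-3.37) and in the matrix (-0.277) and B and plasma cell (-0.228) lists. Replicate 3 at 18 µg stood lowest in Retnla (3.84) and Scd1 (2.64) and highest in Sqle (-1.37). Replicate 1 at 18 µg stood highest in the neutrophil (0.594) and the eosinophil and mast cell (0.156) lists. Replicate 6 at 18 µg stood highest in Myh6 (2.27) and lowest in the mesothelium list (-1.2), and replicate 2 highest in Fabp4 (3.19).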

How the results depend on the processing

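The count of 0 units past an adjusted p of 0.05 was 16 on the 4 slides that hold both doses with slide as a block, 1 with array weights (E230025N22Rik, adjusted p 0.0275) and 0 with slide as a fixed or random block over all arrays and under the other corrections, normalizations and filters. With single arrays left out it was 0 to 3, the 3 being unnamed units without replicate 4 at 54 µg. The 154 units without overlap became 209 to 409 with 1 array left out, 756 on the 4 slides and 552 without replicates 1 and 2 at 54 µg, an alternative chosen after seeing the data; fewer arrays leave fewer to overlap. The comparisons with NRCWE-043 and NRCWE-045 gave 0 without a block and with slide as a fixed block, the 2 settings in which they were fitted. Replicate numbers do not pair the arrays of the 2 doses, and the pairing by slide is the fit on the 4 slides.

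Of 1620 gene values under alternatives 13 changed sign, and of 1386 with an array left out 12 did. Hmox1 was -0.04 and -0.01 with slide as a fixed and a random block, -0.13 on the 4 slides and -0.06 with array weights, and Col1a1 0.03 with array weights. Cxcl13 was -0.1 and C1qa -0.07 from the scanner software's processed signals, and Tnf -0.03 in the deposited series table. Without replicates 1 and 2 at 54 µg Cxcl13 was -0.27 and Adipoq -0.53, and with heart and fat covariates Cxcl13 was -0.04, Adipoq -0.35 and Tnf -0.01. With 1 array left out in turn, Hmox1 ranged between -0.09 and 0.13, Cxcl13 ranged between -0.18 and 0.41, Tnf ranged between -0.05 and 0.09, Col1a1 ranged between -0.21 and 0.13, Il6 ranged between -0.002 and 0.21. Of 429 list medians with an array left out 1 moved by more than the SD between arrays, that of the lysosome list (0.0856 without replicate 4 at 54 µg). Under the alternatives 10 of 507 did. With an array left out, the club and airway secretory median turned in sign, between -0.119 and 0.0753. So did the B and plasma cell (-0.0448 to 0.142), T cell (-0.019 to 0.0986) and fibroblast (-0.0436 to 0.113) medians. The matrix, p53, mesothelium, liver, thymus, red cell, immediate early and heat shock medians also turned in sign. The cause was not tested. Spots near background limit the dim genes: the median Cy5 intensity was 108 to 160 over a background of 69 to 77.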
